A study of Homo sapiens and Mus musculus with 13 samples.

Results

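The expression of 30 adipocyte genes was examined in 6 mammary tumors of MMTV-PyVT mice. The genes were taken as a list of symbols known from fat tissue, out of 55228 gene symbols in the tumor table. The rule names symbols and uses no measured value, but the list was drawn up with earlier results of these data known. All 30 were found, with Tusc5 listed under the symbol Trarg1. Of these, 27 had a mean of at least 0.5 FPKM over the 6 tumors and entered the tests, and Ucp1, Acvr1c and Aqp7 did not. FPKM is the number of fragments scaled by the length of a gene's exons and by the size of the library, so that levels can be set side by side between genes as far as the annotated exon lengths hold, and between tumors.

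White adipocytes store fatty acids as triglyceride in a single large lipid droplet that is coated by perilipins. Lipoprotein lipase and the fatty acid transporter CD36 bring fatty acids in, lipases such as ATGL and HSL release them, and the transcription factors PPARγ and C/EBPα set up and maintain the program. The mammary epithelium lies in a fat pad, whose adipocytes also secrete adiponectin, leptin and adipsin. A piece of mammary tumor can therefore hold adipocytes beside the epithelial tumor cells.

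The series compared tumors with and without a full dose of Trim11, which encodes an E3 ubiquitin ligase. The 3 Trim11+/+ and 3 Trim11+/- tumors came from 3-month old female mice. All of these mice carried the MMTV-PyVT transgene on a hybrid background of C57BL/6N and FVB/N. In the Trim11+/- mice 1 allele had lost exons 2 to 6 by CRISPR/Cas9 in all tissues, fat included, whereas the MMTV promoter drives the oncogene mainly in the mammary epithelium. The 7 libraries of the human line MDA-MB-231 in the series were not used here.

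The FPKM values implied library sizes of 8793199 to 11117125 reads, so that 1 read on a gene with 1 kb of exons was worth 0.0900 to 0.114 FPKM. Whether these sizes count all mapped reads or only those assigned to genes was not determined. The tumors were labelled as mammary, and the 8 luminal epithelial markers summed to 1714 to 2242 FPKM per tumor. Trim11 was at 35.8, 36.3 and 39.2 FPKM in the Trim11+/+ tumors 1 to 3 and at 24.0, 22.8 and 22.9 FPKM in the Trim11+/- tumors 1 to 3. The genotypes did not overlap, with a log2 fold change of -0.65 (standard error 0.0849) on the log2(FPKM + 1) scale, to which all fold changes in log2 below refer. The adjusted p of limma over 17328 genes was 0.199, and the two-sided exact permutation p was 0.1, the smallest that 3 against 3 tumors allow. The tumors were taken as separate mice, which the labels do not settle. Their strain labels carry different numbers, but the number belongs to the name of the transgene line, and the methods name a single line. The study took several tumors per mouse, so tests with 3 tumors per genotype rest on this assumption. The labels do not say which mice shared a litter.

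The tumors differed widely in adipocyte genes, and the differences ran across the genotypes. Trim11+/+ tumor 2 had the highest level of 22 of the 27 genes tested (81.5%), against 14.8% of all 17328 genes tested. Trim11+/- tumor 3 had the lowest level of 20 (74.1%), against 20.9% of all genes. Among all genes, Trim11+/- tumor 3 was also the highest for 22.9%. Over the 27 genes tested, the highest tumor was a median of 9.99-fold above the lowest, and 19 genes (70.4%) varied by more than 5-fold. Over 16493 genes with no value of 0, the median was 1.61-fold and 7.62% varied by more than 5-fold. Without Thrsp, the most abundant of them, the 29 other genes summed to 234.1, 812.7 and 302.3 FPKM in Trim11+/+ tumors 1 to 3 and to 700.0, 461.6 and 187.9 FPKM in Trim11+/- tumors 1 to 3. They made up 0.0569% to 0.2502% of all FPKM in a tumor. With Thrsp included, the 30 genes summed to 399.9, 935.7 and 423.0 FPKM in Trim11+/+ tumors 1 to 3. In Trim11+/- tumors 1 to 3 that sum was 932.9, 732.1 and 558.3 FPKM, so that Trim11+/+ 1 was then the lowest. In such bulk samples, fewer adipocytes and less adipocyte RNA per cell cannot be told apart.

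**Figure D1:**
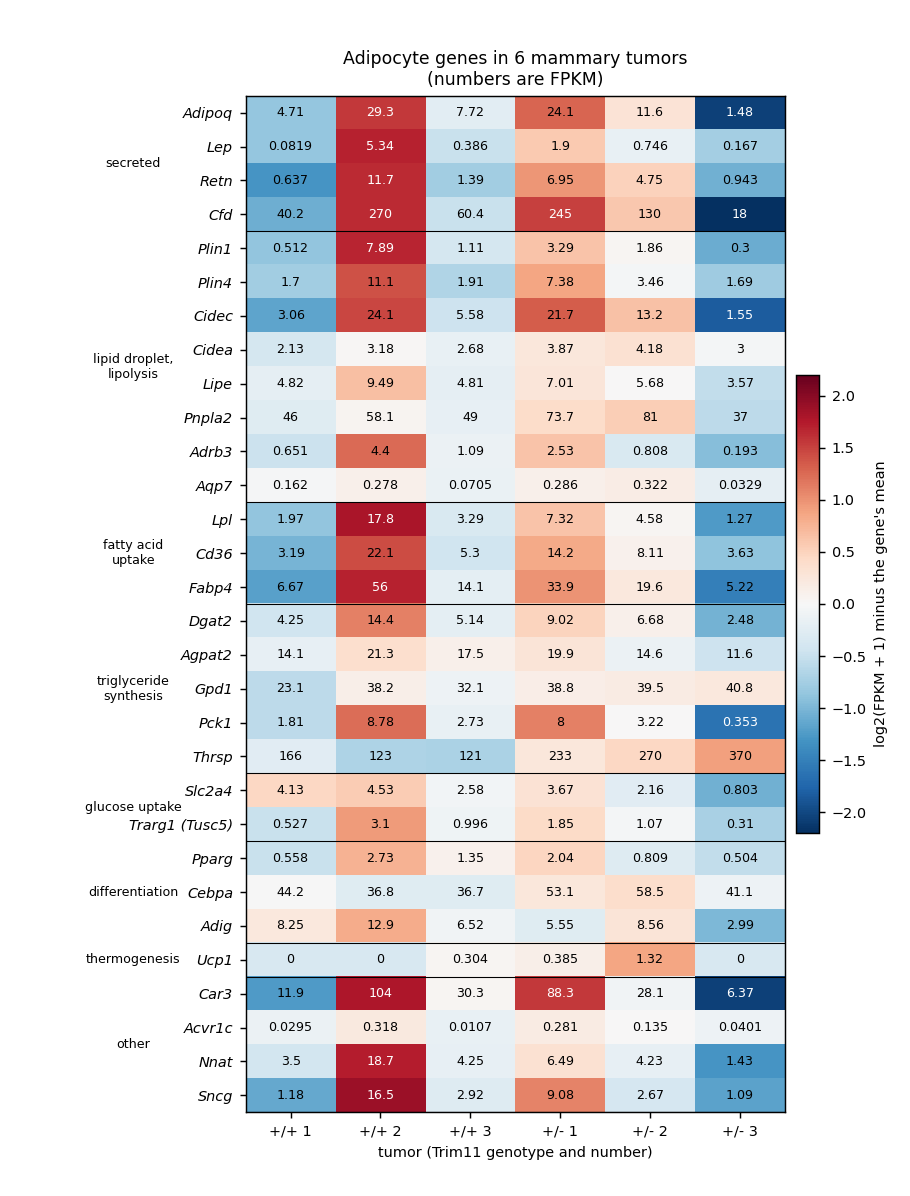
FPKM of the 30 adipocyte genes (rows, grouped by role) in the 3 Trim11+/+ and 3 Trim11+/- tumors (columns), with color for log2(FPKM + 1) minus the mean of the gene over the 6 tumors. Most rows are red in Trim11+/+ tumor 2 and in Trim11+/- tumor 1 and blue in Trim11+/+ tumor 1 and Trim11+/- tumor 3, while Thrsp, Cebpa and Gpd1 follow another order.

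Among secreted proteins, Adipoq encodes adiponectin, a hormone made almost only by adipocytes, and lies on chromosome 16 of mm10 from 23146536 to 23158028. It was at 4.71, 29.3 and 7.72 FPKM in Trim11+/+ tumors 1 to 3 and at 24.1, 11.6 and 1.48 FPKM in Trim11+/- tumors 1 to 3, from 71, 411, 107, 370, 141 and 22 reads. Each genotype held high and low tumors, and the order from high to low was Trim11+/+ 2, Trim11+/- 1, Trim11+/- 2, Trim11+/+ 3, Trim11+/+ 1 and Trim11+/- 3. The highest tumor was 19.8-fold above the lowest, with an exact 95% interval of 12.9 to 31.9 that covers counting error only, as do all intervals of reads below. Trim11+/+ 2 and Trim11+/- 1 were close, with a ratio of 1.22 (95% interval 1.05 to 1.40).

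Cfd encodes adipsin, a complement protease that fat secretes, and was the most abundant of the secreted members. Its level was 40.2, 270.0 and 60.4 FPKM in Trim11+/+ tumors 1 to 3 and 245.4, 130.3 and 17.97 FPKM in Trim11+/- tumors 1 to 3. The 6 tumors stood in the same order as for Adipoq, and the ratio of Cfd to Adipoq stayed between 7.82 and 12.1. Retn encodes resistin and ranged from 0.638 FPKM in Trim11+/+ 1 to 11.7 FPKM in Trim11+/+ 2, with 6.95 FPKM in Trim11+/- 1.

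Lep encodes leptin, which signals the size of fat stores to the brain, and had the widest range of the 27 tested genes. It was at 0.0819, 5.34 and 0.386 FPKM in Trim11+/+ tumors 1 to 3 and at 1.90, 0.746 and 0.166 FPKM in Trim11+/- tumors 1 to 3. Trim11+/+ 2 stood apart from every other tumor here. Its 182 reads against 3 reads in Trim11+/+ 1 gave a ratio of 65.2, with a 95% interval of 22.0 to 319.1.

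The lipid droplet genes split by how far they varied. Plin1, the coat protein of the adipocyte droplet that holds back lipolysis, was at 0.512, 7.89 and 1.11 FPKM in Trim11+/+ tumors 1 to 3 and at 3.29, 1.86 and 0.300 FPKM in Trim11+/- tumors 1 to 3. Cidec, which fuses small droplets into large ones, was at 3.06, 24.1 and 5.58 FPKM and at 21.7, 13.2 and 1.55 FPKM in the same order. Plin1 and Cidec both placed the 6 tumors in the order of Adipoq, and so did Plin4, another perilipin, at 1.69 to 11.1 FPKM. They differed at the top, where Trim11+/+ 2 was 2.40-fold above Trim11+/- 1 for Plin1 (95% interval 2.00 to 2.89) and 1.11-fold for Cidec (95% interval 0.970 to 1.27).

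The lipases varied less. Lipe encodes hormone-sensitive lipase and was at 4.82, 9.49 and 4.81 FPKM in Trim11+/+ tumors 1 to 3 and at 7.02, 5.68 and 3.57 FPKM in Trim11+/- tumors 1 to 3, a range of 2.66-fold (95% interval 2.27 to 3.11). Pnpla2 encodes ATGL, the lipase of the first step, and was at 37.0 to 81.0 FPKM with the highest level in Trim11+/- 2. Both are used by many other tissues. Adrb3, the β3-adrenergic receptor that switches on lipolysis in fat, varied over a wide range, from 0.193 FPKM in Trim11+/- 3 to 4.40 FPKM in Trim11+/+ 2, on 7 and 151 reads. Aqp7, the glycerol channel, stayed under the filter at 0.0329 to 0.322 FPKM.

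Of the genes of fatty acid uptake, Lpl encodes lipoprotein lipase and was at 1.97, 17.8 and 3.29 FPKM in Trim11+/+ tumors 1 to 3 and at 7.32, 4.58 and 1.27 FPKM in Trim11+/- tumors 1 to 3. Fabp4, the fatty acid binding protein of adipocytes, was at 6.67, 56.0 and 14.1 FPKM and at 33.9, 19.6 and 5.22 FPKM in the same order. Both followed the order of Adipoq in all 6 tumors. Cd36 was at 3.19 to 22.1 FPKM and departed from that order only at the bottom, where Trim11+/+ 1 was below Trim11+/- 3. Cd36 and Fabp4 are also expressed by capillary endothelium, and the 8 endothelial markers summed to 17.8 to 31.6 FPKM per tumor.

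In triglyceride and glycerol metabolism, Pck1 encodes an early enzyme on a path to glycerol 3-phosphate for new triglyceride in fat. Pck1 was at 1.82, 8.78 and 2.73 FPKM in Trim11+/+ tumors 1 to 3 and at 8.001, 3.22 and 0.353 FPKM in Trim11+/- tumors 1 to 3. Dgat2, the last enzyme of triglyceride synthesis, followed the same order over a smaller range, from 2.48 to 14.4 FPKM. Agpat2, an enzyme of the same pathway, was at 11.6 to 21.3 FPKM, a range of 1.84-fold (95% interval 1.58 to 2.15). Slc2a4, the insulin-dependent glucose transporter of fat and muscle, was at 0.803 to 4.53 FPKM, and Trarg1, a partner of its transport, at 0.310 to 3.10 FPKM.

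Of the regulators, Pparg, the nuclear receptor that drives adipocyte differentiation, was at 0.558, 2.73 and 1.35 FPKM in Trim11+/+ tumors 1 to 3 and at 2.04, 0.809 and 0.504 FPKM in Trim11+/- tumors 1 to 3. Adig, which encodes adipogenin, was at 2.99 to 12.9 FPKM. Among the remaining genes, Car3, a carbonic anhydrase abundant in fat and in slow muscle, was at 11.9, 103.8 and 30.3 FPKM in Trim11+/+ tumors 1 to 3 and at 88.4, 28.1 and 6.37 FPKM in Trim11+/- tumors 1 to 3. Nnat was at 1.43 to 18.7 FPKM and Sncg, encoding γ-synuclein, at 1.09 to 16.5 FPKM, both with the highest level in Trim11+/+ 2. Acvr1c, which encodes an activin receptor of fat, was at or under 0.318 FPKM in every tumor.

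Of the markers of thermogenic fat, Ucp1 and several others were low, and some were not. Ucp1, the uncoupling protein of brown fat, had 0, 0 and 5 reads in Trim11+/+ tumors 1 to 3 and 7, 19 and 0 reads in Trim11+/- tumors 1 to 3. A count of 0 allows up to 0.180 FPKM, and the highest tumor, Trim11+/- 2, was at 1.32 FPKM. Cidea, a droplet protein of brown fat that the mammary gland also uses, was at 2.13, 3.18 and 2.68 FPKM in Trim11+/+ tumors 1 to 3 and at 3.87, 4.18 and 3.00 FPKM in Trim11+/- tumors 1 to 3. Its highest and lowest tumors differed by 1.96-fold (95% interval 1.17 to 3.34). Of 13 other brown fat genes in the table, only 6 passed the filter, and 1 was at 0 in all tumors. None of the 6 was called between the genotypes. Cox8b, a cytochrome c oxidase subunit gene of brown fat and muscle, was at 2.59 to 15.2 FPKM and Cox7a1, another such subunit, at 4.62 to 12.5 FPKM. Mpzl2 had a mean of 7.96 FPKM, and the means of Dio2, Otop1 and Pdk4 were 0.835 to 1.23 FPKM. The r with Adipoq was 0.81 for Otop1, 0.80 for Cox8b, 0.79 for Pdk4, 0.47 for Dio2, 0.21 for Mpzl2 and -0.17 for Cox7a1.

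The members were compared with each other over the 6 tumors by Pearson's r of log2(FPKM + 1). The 351 pairs of the 27 tested genes had a median r of 0.867 and a median Spearman rho of 0.886, and 55.0% of them were over 0.8. Over the pairs of all tested genes the median r was 0.0 and 3.8% were over 0.8. The 6 points of each pair share their libraries, so these values describe the tumors and carry no p. Under the different pseudocounts, filters and scalings the median r was 0.797 to 0.872, the lowest with all 30 genes, and it was 0.845 to 0.910 when 1 tumor was left out.

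Adipoq served as the reference for this shared pattern. Of the 26 other tested genes, 17 (65.4%) had an r over 0.9 with Adipoq, against 300 of 17327 genes (1.73%). Pck1 was closest with an r of 0.994 and a rho of 1.0 (exact permutation p = 0.00139 and 0.00278), followed by Cfd with an r of 0.993, Car3 with 0.982, Cidec with 0.982, Dgat2 with 0.977 and Fabp4 with 0.972. With 6 tumors the smallest exact p for r was 0.00139, which 62 genes reached, and no gene had an adjusted p under 0.375 for r or under 0.438 for rho over all 17327 genes. Without Trim11+/- 3 and Trim11+/+ 2, which are farthest from the median of Adipoq, the median r of the 26 genes was 0.958, against 0.922 over 6 tumors, and 16 genes were over 0.9 beside 6.34% of all genes. On deviations from the genotype means the median r was 0.937 and 17 genes were over 0.9.

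**Figure D2:**
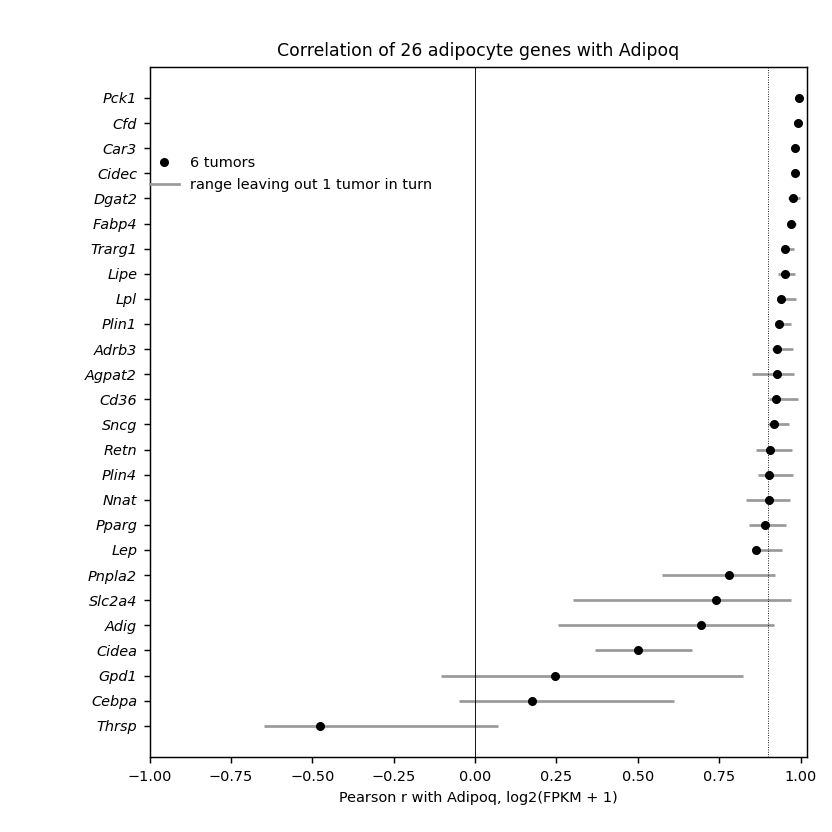
Pearson r of log2(FPKM + 1) with Adipoq for the 26 other tested adipocyte genes, with points for the 6 tumors and bars for the range when each tumor was left out in turn. The dotted line marks 0.9, above which 17 genes lie, and Thrsp is the only gene with a negative r (-0.48).

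The genes that moved together did not move by the same factor. For each doubling of Adipoq, the fitted change in log2 FPKM was 1.22 for Lep, 1.05 for Pck1 and Plin1, 0.99 for Cidec, 0.96 for Car3, Cfd and Adrb3, 0.63 for Cd36 and 0.54 for Dgat2. It was 0.29 for Lipe, 0.21 for Pnpla2 and 0.19 for Agpat2. These last genes kept a clear level in Trim11+/- 3, the tumor with the least Adipoq, where Lipe was at 3.57 FPKM, Pnpla2 at 37.0 FPKM and Agpat2 at 11.6 FPKM. The ratio to Adipoq varied by 1.55-fold over the tumors for Cfd, 1.62-fold for Pck1, 1.75-fold for Cidec and 1.78-fold for Car3, but by 10.5-fold for Lep.

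**Figure D3:**
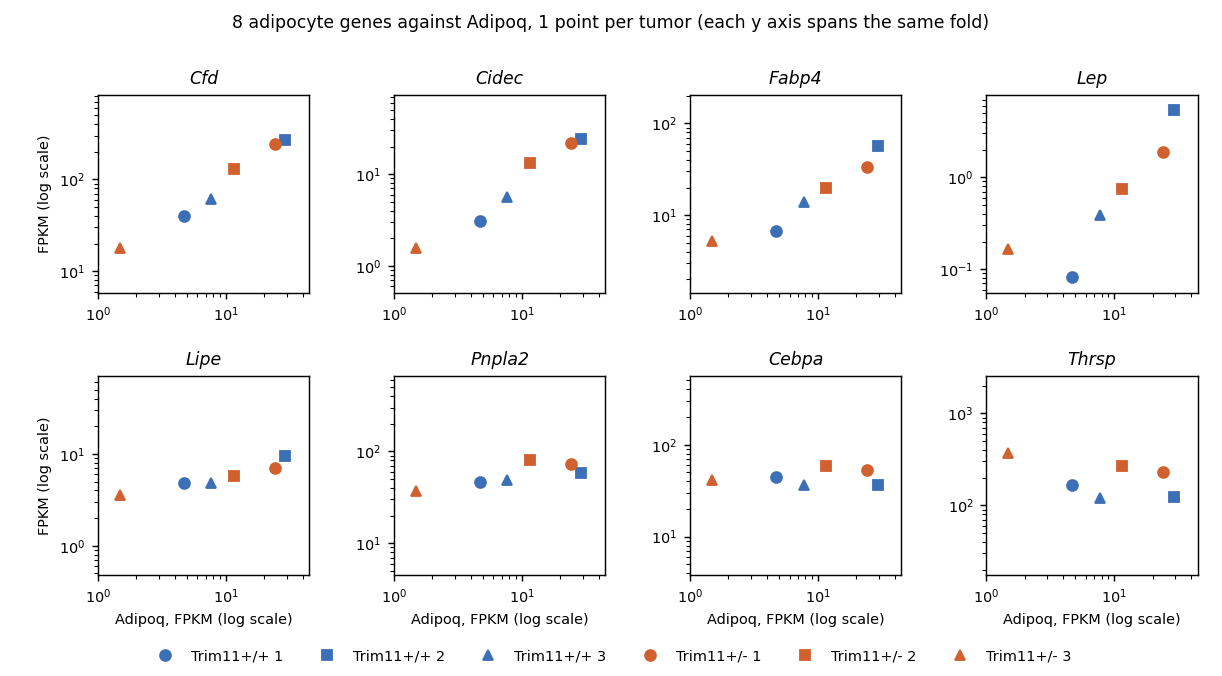
FPKM of 8 adipocyte genes against FPKM of Adipoq in the same tumor, both on log scales, with blue for Trim11+/+ and orange for Trim11+/- tumors. Cfd, Cidec and Fabp4 rise along the whole range of Adipoq (1.48 to 29.3 FPKM), Lipe and Pnpla2 rise little, and Cebpa and Thrsp do not follow it.

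The tumors highest in Adipoq, Trim11+/+ 2 and Trim11+/- 1, differed in the make-up of the program. Among the 26 tested genes with whole reads, 16 were higher in Trim11+/+ 2 with an interval of the ratio above 1, 3 were lower and 7 had an interval that held 1, and the median ratio was 1.35. Nnat, Lep, Lpl and Plin1 showed the largest ratios with 2.88 (95% interval 2.35 to 3.55), 2.80 (2.12 to 3.74), 2.43 (2.24 to 2.64) and 2.40 (2.00 to 2.89). Cfd, Cidec and Pck1 were within 1.10 to 1.11. Thrsp (0.529), Cebpa (0.693) and Pnpla2 (0.789) were lower in Trim11+/+ 2. These ratios set 1 tumor against 1 tumor and have no replicate check.

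Over all tumors, 3 of the 27 genes departed from the shared pattern, with an r under 0.5 against the mean of the other members' standardised values. Thrsp had an r of -0.41, Cebpa 0.11 and Gpd1 0.36, and Cidea at 0.55 and Slc2a4 at 0.61 were next to that limit. Adig (0.62) and Pnpla2 (0.72) followed. The 24 remaining genes had a median pairwise r of 0.919. The departure depended on the tumors included. For Gpd1, Thrsp and Cebpa, the r with Adipoq was 0.245, -0.48 and 0.18 over all tumors. Without Trim11+/- 3 and Trim11+/+ 2 it was 0.85, 0.61 and 0.59. With single tumors left out it ranged from -0.10 to 0.82 for Gpd1, -0.65 to 0.071 for Thrsp and -0.048 to 0.61 for Cebpa. On deviations from the genotype means it was 0.45, -0.88 and 0.39.

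Thrsp encodes Spot 14, a regulator of fatty acid synthesis in liver, fat and the lactating mammary gland, and lies on chromosome 7 of mm10 from 97412938 to 97417730. It was at 165.8, 123.1 and 120.8 FPKM in Trim11+/+ tumors 1 to 3 and at 232.8, 270.5 and 370.4 FPKM in Trim11+/- tumors 1 to 3. The genotypes did not overlap, and the highest level stood in Trim11+/- 3, the tumor with the least Adipoq. With 2653 to 8713 reads per tumor, its counting error was small. The ratio of Thrsp to Adipoq varied by 59.4-fold over the tumors.

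Cebpa, encoding C/EBPα, was at 44.2, 36.8 and 36.7 FPKM in Trim11+/+ tumors 1 to 3 and at 53.1, 58.5 and 41.1 FPKM in Trim11+/- tumors 1 to 3. The genotypes overlapped, since Trim11+/- 3 was below Trim11+/+ 1. Gpd1, which makes glycerol 3-phosphate from a glycolytic intermediate, was at 23.1, 38.2 and 32.1 FPKM and at 38.8, 39.5 and 40.8 FPKM in the same order, without overlap. For Gpd1, 12.97% of the exon bases are shared with Gm16537 on the opposite strand, a gene at 28.55 to 54.65 FPKM, and the library kit does not mark strand. Shared exon bases were also found for Adrb3 (24.9%, with Gm45470) and Lipe (15.6%, with 4732471J01Rik). Smaller shares were found for Nnat (4.76%, with Gm23134), Agpat2 (3.0%, with Egfl7) and Cebpa (1.93%, with Gm45091). Acvr1c (1.81%) and Plin4 (0.29%) shared least. Gm23134 was at 6.31 to 58.8 FPKM, highest in Trim11+/+ 2, and Gm45091 at 25.0 to 49.6 FPKM, highest in Trim11+/- 2. Reads in shared bases cannot be assigned to a strand.

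Slc2a4 and Adig followed the pattern mainly through the tumor with the least Adipoq. Their r with Adipoq was 0.74 and 0.69 over 6 tumors and was 0.30 and 0.25 without Trim11+/- 3. Without both Trim11+/- 3 and Trim11+/+ 2 it was -0.10 and -0.66. Adig was at 8.25, 12.9 and 6.52 FPKM in Trim11+/+ tumors 1 to 3 and at 5.55, 8.56 and 2.99 FPKM in Trim11+/- tumors 1 to 3. Its level in Trim11+/- 1 was thus below that of Trim11+/+ 1, although Adipoq was 5.12-fold higher there.

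Between the genotypes, 1 adipocyte gene was called higher in Trim11+/- tumors and 0 lower, where a call needs mean FPKM to differ by 1.5-fold or more with an unadjusted limma p under 0.05. Over all 17328 genes 1.74% were called higher and 1.87% lower. Only Thrsp had an unadjusted p under 0.05, against 6.94% of all genes, and 0 members had an adjusted p under 0.05, against 0.00577%. The adjusted p of the 27 genes was 0.486 to 0.997. The genotypes did not overlap for 2 genes, Thrsp and Gpd1, against 13.4% of all genes.

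For Thrsp the log2 fold change was 1.08 (standard error 0.210, adjusted p = 0.486, limma), a ratio of means of 2.13, and its exact permutation p was 0.1. It was called higher under every alternative setting and with each tumor left out, at log2 fold changes of 0.89 to 1.22. Gpd1 had a log2 fold change of 0.37 (standard error 0.178, adjusted p = 0.727) and missed the fold for a call.

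Most genes of the shared pattern changed sign between the genotypes when 1 tumor was left out. Adipoq had means of 13.9 ± 13.4 FPKM in Trim11+/+ tumors and 12.4 ± 11.3 FPKM in Trim11+/- tumors (SD, n = 3 each), and its log2 fold change was -0.31 with a 95% interval of -2.61 to 1.98. The interval was -2.65 to 2.54 for Cfd, -2.04 to 1.49 for Plin1 and -1.91 to 1.45 for Lep, so changes of several fold in either direction lie within these intervals. Over the 27 genes the median log2 fold change was -0.23, with 9 positive and 18 negative, against -0.0048 over all genes. It was 0.41, with 23 of 27 positive, without Trim11+/+ 2, and 0.35, with 21 positive, without Trim11+/- 3. Without Trim11+/+ 1 it was -0.57 and without Trim11+/- 1 it was -0.57. Of the 24 genes, 6 kept their sign with each tumor left out, Adig, Slc2a4, Nnat and Agpat2 on the negative side and Cidea and Pnpla2 on the positive side. None of the 6 was called over 6 tumors. Without 1 tumor, Slc2a4 was called lower (without Trim11+/- 1), Adig lower (without Trim11+/- 2), Cidea higher (without Trim11+/+ 2 or Trim11+/- 3) and Pnpla2 higher (without Trim11+/- 3).

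**Figure D4:**
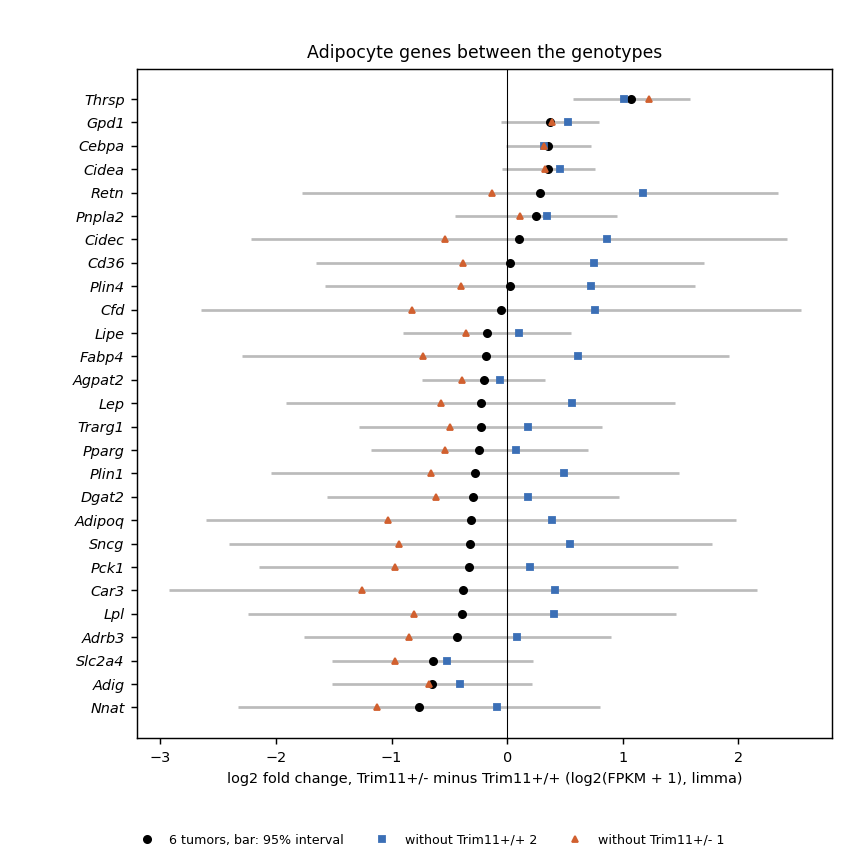
Log2 fold change of the 27 tested adipocyte genes, Trim11+/- minus Trim11+/+ tumors, on log2(FPKM + 1), with points for 6 tumors, bars for the 95% interval of limma, squares without Trim11+/+ 2 and triangles without Trim11+/- 1. Only the bar of Thrsp (1.08) lies clear of 0, and 14 genes change sign when Trim11+/+ 2 is left out.

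The wider pathways of fat were followed in lists of other genes. Of 18 other lipid droplet and lipolysis genes tested, 1 was called higher and 0 lower in Trim11+/- tumors. This was Plin5, a perilipin of tissues that burn fat, at 1.14, 1.46 and 1.53 FPKM in Trim11+/+ tumors 1 to 3 and at 2.67, 3.27 and 3.03 FPKM in Trim11+/- tumors 1 to 3 (log2 fold change 0.75, adjusted p = 0.437, limma). Of 22 other genes of triglyceride synthesis and lipid uptake, 1 was called higher, the acyl-CoA synthetase gene Acsl4 (log2 fold change 0.64, adjusted p = 0.671). Of 17 other adipokine and hormone receptor genes, 1 was called lower, the natriuretic peptide clearance receptor gene Npr3 (log2 fold change -0.57, adjusted p = 0.707). Npr3 had a mean of 0.55 FPKM, close to the filter of 0.5 FPKM. Over all genes 1.74% were called higher and 1.87% lower. None of 15 fatty acid synthesis genes and none of 14 other adipogenic transcription factor genes was called.

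Fewer genes of these lists than of the members tracked Adipoq with an r over 0.9, which 1.73% of all genes exceeded. The r with Adipoq was over 0.9 for 2 of 18 lipid droplet genes, Pnpla3 (0.909) and Fitm2 (0.923), and for 1 of 22 triglyceride genes, Acsl1 (0.928). It was over 0.9 for 2 of 15 fatty acid synthesis genes, Fasn (0.928) and Acaca (0.929), for 1 of 14 transcription factors, Gata3 (0.912), and for 1 of 17 adipokine and receptor genes, the insulin signaling adaptor Irs2 (0.972). The median r was 0.45 for the lipid droplet list, 0.06 for the triglyceride list, 0.64 for fatty acid synthesis and 0.74 for transcription factors. It was 0.92 for the members and -0.044 over all genes, so most of these lists lay between the members and all genes. Pnpla3 ranged from 0.296 FPKM in Trim11+/+ 1 to 2.67 FPKM in Trim11+/+ 2, while Fasn ranged only from 22.4 to 40.1 FPKM.

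Other tissue components also differed between the tumors. The 9 milk protein genes had median log2 deviations from their own means of -0.95, 1.29 and -0.04 in Trim11+/+ tumors 1 to 3 and 0.12, 0.02 and -1.11 in Trim11+/- tumors 1 to 3. These medians placed the tumors in the same order as those of the 27 adipocyte genes, which were -0.57, 1.24 and -0.22 and 0.57, 0.04 and -0.98. The casein genes Csn1s1 (r = 0.930) and Csn1s2a (r = 0.928) were over 0.9 with Adipoq, whereas Wap, the whey acidic protein gene, had an r of -0.63 and its highest level, 169.8 FPKM, in Trim11+/- 3. The summed level of the milk genes gave another order than their median, with 1805, 3858 and 3659 FPKM in Trim11+/+ tumors 1 to 3 and 2719, 2675 and 1468 FPKM in Trim11+/- tumors 1 to 3. None of these genes was at 0 in all tumors.

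The 17 skeletal muscle genes tested followed another order, with summed levels of 47.7, 205.7 and 357.8 FPKM in Trim11+/+ tumors 1 to 3 and 481.0, 20.4 and 14.1 FPKM in Trim11+/- tumors 1 to 3. Trim11+/- 2 was near the bottom for muscle and above Trim11+/+ tumors 1 and 3 for Adipoq. The median r of the list with Adipoq was 0.65, and myoglobin (Mb) at 0.904 was the only muscle gene over 0.9. The median r was 0.64 for 8 endothelial, 0.59 for 8 fibroblast, 0.21 for 8 macrophage, 0.13 for 8 luminal and -0.19 for 8 basal markers. Of the 8 basal markers, 5 (Krt5, Krt14, Krt17, Trp63 and Oxtr) were called lower in Trim11+/- tumors, against 1.87% of all genes. Their adjusted p was 0.610 to 0.684 (limma), so none passed the adjustment. The 8 fibroblast markers summed to 152.1 to 388.1 FPKM. Of the 9 milk genes, 1 was called lower (Btn1a1, log2 fold change -1.25, adjusted p = 0.707, limma). Of 5 blood markers, 3 globin genes (Hba-a1, Hbb-bs and Hbb-bt) were called lower and 1 (Hba-a2) higher, at adjusted p of 0.167 to 0.707 (limma). Over all genes 1.87% were called lower and 1.74% higher, and near-identical globin copies share reads. None of the muscle, luminal, macrophage, endothelial and fibroblast markers was called, nor was the 1 T and B cell marker that passed the filter (r = 0.21). The median r of the 5 blood markers with Adipoq was -0.21. The part of these tissue components in the levels of the adipocyte genes was not tested.

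**Figure D5:**
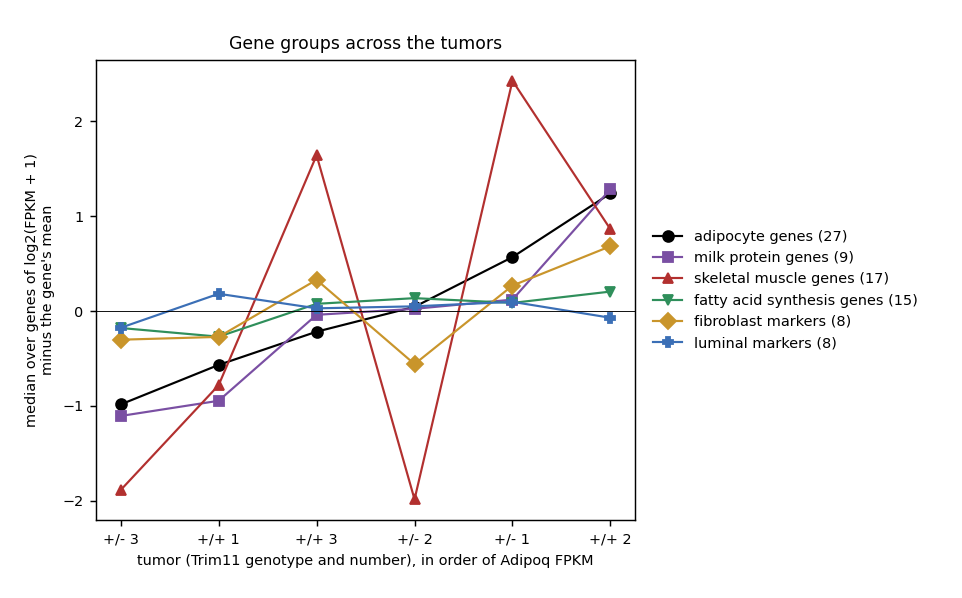
Median over the genes of a list of log2(FPKM + 1) minus each gene's mean, in the 6 tumors ordered by Adipoq FPKM from low to high (number of genes tested in brackets). The adipocyte (black) and milk protein (purple) medians rise from left to right, from -0.98 to 1.24 and from -1.11 to 1.29, the muscle genes (red) jump between tumors, and the luminal markers (blue) stay within -0.18 to 0.18.

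Outside the lists, the 10 genes most like Adipoq over the 6 tumors, among genes with a mean of at least 5 FPKM, had r between 0.978 and 0.998. Ptx3, which encodes the secreted pattern recognition protein pentraxin 3, came first with 13.3, 35.6 and 18.7 FPKM in Trim11+/+ tumors 1 to 3 and 34.6, 22.7 and 7.88 FPKM in Trim11+/- tumors 1 to 3. The others were Gas2l1, Fam160a2, Rfk, Rab29, Ifi27l2a, Ntf5, Kit, Cnksr1 and Ifit3. Of these, Ifi27l2a, an interferon-induced gene, varied most, from 7.84 to 58.9 FPKM, and Rfk, the riboflavin kinase gene, only from 34.1 to 53.3 FPKM. With 6 tumors and 17327 genes the likeness of single genes did not pass the adjustment (adjusted p = 0.375 for each of the 10, exact permutation test of r).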

How the data were processed

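RNA-Seq of 6 mouse tumors was analysed. Libraries were made from poly(A) RNA with a kit that does not mark strand. Per the methods, the authors trimmed reads with Cutadapt, mapped them with HISAT2 to mm10 and calculated expression levels with Cufflinks. Which tool wrote the deposited FPKM values was not determined. The submitters' processing notes also list Bowtie 0.12.2. The FPKM values equaled whole reads over GENCODE vM21 exon lengths within 0.02 reads for 98.8% of 137896 values, which gave the library totals. Reads of Plin4 did not come out whole and are not given. Lengths take all annotated exons together, which for Fabp4 is its whole span (4489 bases), so FPKM levels between genes depend on that annotation.

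Rows with a repeated symbol (107) were reduced to the highest. Genes with a mean of at least 0.5 FPKM were tested with limma 3.58.1 (eBayes with trend, R 4.3.3) on log2(FPKM + 1), adjusted by Benjamini-Hochberg over 17328 genes. The call rule is that of the study, a fold of 1.5 and an unadjusted p under 0.05. Correlations used exact permutations over 720 orders (Python 3.11.15, scipy 1.17.1, numpy 2.4.6, pandas 2.3.3, matplotlib 3.10.9). Both were checked on data with known answers. Intervals of read ratios are exact binomial at 95% and cover counting error only, and the upper limit of a 0 is 3 reads. Named genes were all 30 members, Trim11, genes of the 15 other lists that were called or had an r over 0.9 with Adipoq, and the 10 genes most like Adipoq with a mean of at least 5 FPKM, without Gm, Rik and -ps symbols. Beyond that rule, the other tested brown fat genes, Wap, Lepr and genes that share exon bases with a member were named. The members and lists were chosen with earlier results of these data known.

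Alternatives were pseudocounts of 0.1 and 0.25, a mean of at least 1 FPKM, no filter, scaling to the same total FPKM or by median ratios, eBayes without trend, the replicate number as a block, and each tumor left out in turn. Sequences of the mouse genes were not used here.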

Additional observations from a re-analysis of the deposited data

How the results depend on the processing

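Under the 8 alternatives that keep all 6 tumors, no log2 fold change of the 27 adipocyte genes changed sign, and the median stayed between -0.23 and -0.19. The count of genes called higher was 1 in each of them and the count with an adjusted p under 0.05 was 0. With the replicate number as a block, 2 genes were called lower instead of 0 (Adig and Slc2a4). Same-numbered tumors did not deviate together (r = -0.33, 0.04 and -0.13 over genes for numbers 1 to 3), and the numbers were taken as names only. With no filter on low values the median r over pairs was 0.797. With 1 tumor left out, 18 of 27 genes changed sign in at least 1 case. Their log2 fold changes then ranged, among secreted proteins, from -1.04 to 0.63 for Adipoq, -0.71 to 0.56 for Lep, -0.30 to 1.17 for Retn and -0.82 to 1.03 for Cfd. Droplet and lipolysis genes gave -0.78 to 0.49 for Plin1, -0.40 to 0.73 for Plin4, -0.54 to 1.04 for Cidec, -0.36 to 0.11 for Lipe and -0.85 to 0.083 for Adrb3. Uptake and synthesis genes gave -0.93 to 0.41 for Lpl, -0.48 to 0.75 for Cd36, -0.83 to 0.62 for Fabp4, -0.61 to 0.18 for Dgat2 and -0.97 to 0.40 for Pck1. The ranges were -0.53 to 0.18 for Trarg1, -0.55 to 0.080 for Pparg, -1.25 to 0.55 for Car3 and -0.96 to 0.54 for Sncg. The count called higher was 1 to 3 (Cidea and Thrsp without Trim11+/+ 2, these and Pnpla2 without Trim11+/- 3), the count called lower was 0 to 1 (Slc2a4 without Trim11+/- 1, Adig without Trim11+/- 2), the median log2 fold change was -0.57 to 0.41, the median r over pairs was 0.845 to 0.910 and the median r with Adipoq was 0.906 to 0.944. The cause was not tested. The read totals limit the low genes, since Lep had 3 reads in 1 tumor and Ucp1 had 0 in 3.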

Other observations

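Lepr, which encodes the leptin receptor, ran opposite to Adipoq, with 4.64, 2.13 and 3.62 FPKM in Trim11+/+ tumors 1 to 3 and 1.85, 2.48 and 6.36 FPKM in Trim11+/- tumors 1 to 3. The gene was picked from the list of hormone receptors after its values were seen. Its r with Adipoq was -0.98 and its rho -0.94 over 6 tumors (exact permutation p = 0.00278 and 0.0167, adjusted p = 0.375 and 0.480 over all genes), and the r was -0.98 without the 2 tumors farthest from the median.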
